A study of Mus musculus with 24 samples.

Results

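The 10 genes described here, of the AP-1 transcription factor and of the immediate early response, were followed across mouse livers: Jun, Junb, Jund, Fos, Fosl2, Atf3, Egr1, Ier2, Dusp1 and Myc. They were taken by name from a table of 31027 loci, where each of the 10 was found at 1 locus that carried no other name. All 10 passed the filter of a mean of at least 1 FPKM (fragments relative to the length of the transcript and to the size of the library), as did 10562 loci in all. The study measured liver RNA of C57BL/6J mice in 24 libraries, 3 in each of 8 groups, after 16 weeks of feeding with either chow or high fat food. Every mouse carried Alb-Cre, a recombinase driven by the albumin promoter. The groups on each diet were AlbCre+ alone (control), AlbCre+ Jnk1flox/flox (Jnk1), AlbCre+ Jnk2flox/flox (Jnk2) and AlbCre+ Jnk1flox/floxJnk2flox/flox (Jnk1Jnk2). The albumin promoter is active in hepatocytes, so macrophages and endothelial cells are not expected to lose either kinase. Deletion by cell type was not measured.

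AP-1 is a dimer of a JUN protein with another JUN, a FOS or an ATF protein. JNK1 and JNK2, the kinases encoded by Mapk8 and Mapk9, phosphorylate the activation domain of c-Jun and of related factors, and AP-1 acts on the promoter of Jun itself. Immediate early genes such as Fos, Egr1 and Ier2 are transcribed within minutes of a stimulus without new protein synthesis, and in liver they respond to injury, regeneration, feeding and the handling of tissue. These transcripts are short-lived.

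Promoters were available for 7 of the 10 genes (RefSeq, GRCm38.p6, the same assembly as mm10): Jun, Junb, Jund, Fos, Fosl2, Atf3 and Dusp1. Egr1, Ier2 and Myc had no entry. The 3 printed here belong to Jun and Fos, which varied together between replicates, and to Dusp1, which encodes a phosphatase that acts on JNK. Each window runs from 250 bases before to 50 bases after the annotated start, 5′ to 3′ on the strand of the gene. Jun lies at chr4:95052173-95052472 on the minus strand, Fos at chr12:85473640-85473939 on the plus strand and Dusp1 at chr17:26508423-26508722 on the minus strand. Capitals mark every match to the motifs searched.
Jun: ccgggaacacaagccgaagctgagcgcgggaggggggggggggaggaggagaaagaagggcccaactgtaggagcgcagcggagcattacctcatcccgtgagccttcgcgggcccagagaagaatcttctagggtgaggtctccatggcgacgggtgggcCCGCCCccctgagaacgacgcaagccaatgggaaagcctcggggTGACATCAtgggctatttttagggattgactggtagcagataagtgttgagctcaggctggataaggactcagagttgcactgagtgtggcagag
Fos: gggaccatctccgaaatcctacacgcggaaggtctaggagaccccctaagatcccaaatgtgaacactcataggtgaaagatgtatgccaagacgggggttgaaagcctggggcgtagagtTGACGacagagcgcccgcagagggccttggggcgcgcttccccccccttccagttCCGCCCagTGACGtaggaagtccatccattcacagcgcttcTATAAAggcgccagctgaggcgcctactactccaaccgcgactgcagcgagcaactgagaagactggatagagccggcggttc
Dusp1: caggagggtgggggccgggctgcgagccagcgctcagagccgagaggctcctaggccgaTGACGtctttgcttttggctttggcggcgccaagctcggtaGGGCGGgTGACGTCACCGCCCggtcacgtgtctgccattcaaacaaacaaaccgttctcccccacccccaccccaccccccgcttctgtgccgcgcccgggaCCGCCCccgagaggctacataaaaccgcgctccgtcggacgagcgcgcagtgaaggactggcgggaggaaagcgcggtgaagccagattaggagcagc

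Both strands were searched for 7 motifs. In Jun, the capitals at position -45 are TGACATCA, a variant AP-1 element present in 3.6% of 32851 promoter windows of the same length. Fos held TGACG, the core of the cAMP response element, at -129 and -66, and TATAAA, the TATA box, at -33. Dusp1 held the full element TGACGTCA at -143, which overlaps 2 of its 3 matches to TGACG and lies between 2 GC boxes, 1 of them run together with it in the capitals. TGACG was present in 4 of the 7 promoters and in 20.8% of all windows, and TGACGTCA was present in 1.8% of all windows. The AP-1 element TGACTCA (5.2% of windows) and the CArG box of serum response factor (1.6%) matched 0 of the 7 windows. Sequence farther from the start was not searched, and Egr1 had no entry. The absence of a match thus cannot show that Fos or any other member lacks either element. TATAAA (13.6% of windows) matched 2 of the 7, Fos and Junb, and the GC box GGGCGG (35.7% of windows) matched 5. The match in Junb begins at position 1, the annotated start itself. Whether the annotated starts of Junb, Jund and Atf3, which enter these counts, are those used in liver was not checked. The Atf3 window (chr1:191183284-191183583, minus strand) lies inside its locus, which runs to 191218039. A match describes the letters and does not show binding.

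Relative depth was read from the commonest ratio of low FPKM values between libraries. The lowest was 0.308 of that in the deepest library, chow control replicate 1. Mapk8 lay between 0.845 and 2.47 FPKM in the 12 Jnk1 and Jnk1Jnk2 libraries and between 3.38 and 5.77 in the others. Mapk9 lay between 4.33 and 7.79 FPKM in the 12 Jnk2 and Jnk1Jnk2 libraries and between 9.01 and 12 in the others. Of 6 hepatocyte markers, Apoa1 was abundant throughout (5260 to 12400 FPKM), while Cps1 ranged from 69.9 to 1070 and Alb was listed at 0 in 4 libraries. In chow control replicate 1 and chow Jnk2 replicates 2 and 3, 2 of the 6 were at 0. In chow Jnk1 replicate 3, every chow Jnk1Jnk2 library and high fat Jnk1 replicate 1, 1 was at 0. In the 3 high fat Jnk1Jnk2 libraries FPKM fell with transcript length across loci (Spearman -0.61, -0.66 and -0.6). Whether each replicate is its own mouse is not stated in the labels, so p-values reflect only how these samples scatter, and that scatter may be technical.

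Members differed in level and in how steady they were. Mean FPKM over the 24 libraries was highest for Jund, Junb, Ier2 and Dusp1 (30.0, 21, 14.2 and 13.7) and lowest for Atf3, Fos, Fosl2 and Myc (1.24, 1.81, 1.85 and 2.6). Jun and Egr1 lay between, at 6.54 and 8.41. The SD within groups on the log2(FPKM + 1) scale was 0.83 for Egr1, 0.75 for Fos and 0.6 for Junb, against a median of 0.159 over all tested loci. It was smallest for Fosl2 (0.13) and Jund (0.2). The within-group SD of 8 members exceeded that of 90% of loci. Fos rested on 11 to 994 fragments per library by the depth estimate, and Atf3 on 6 to 133.

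**Figure D1:**
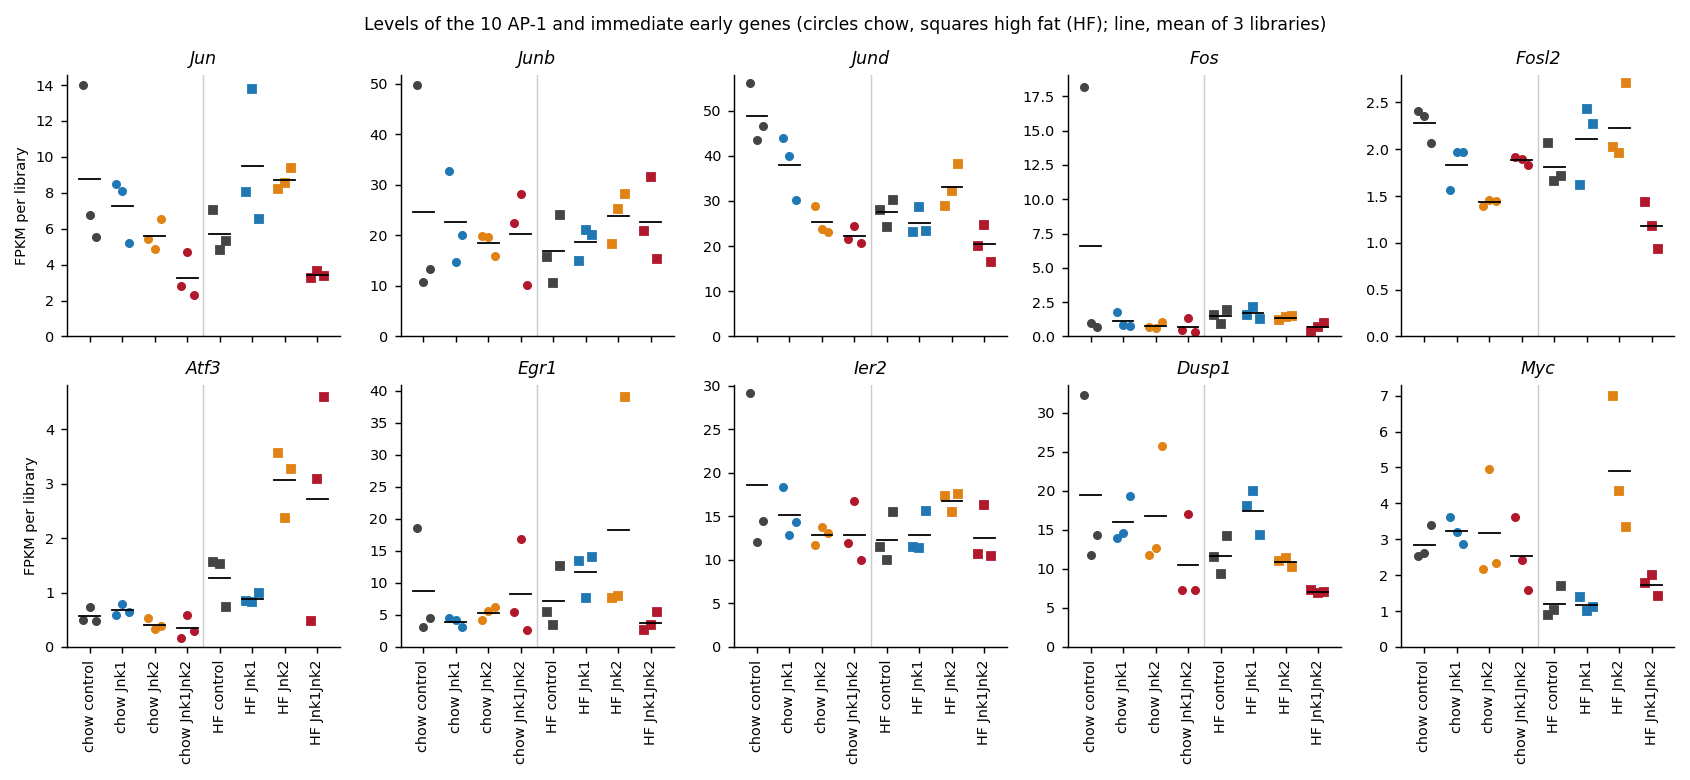
Level in FPKM (y axis, linear, from 0) of each member in each library, by diet and genotype. Circles are chow, squares are high fat (HF), and lines are means of 3 libraries; chow control replicate 1 stands far above its group at Fos (18.2), while Jun in the high fat Jnk1Jnk2 libraries lies close together (3.25 to 3.62).

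Single libraries stood out over several members at once. Chow control replicate 1 was the highest of its 3 at 8 of the 10 members, with a median deviation of 0.72 on the log2 scale from the group mean. Fos was 18.2 FPKM there against 0.954 and 0.665 in the other chow controls, and Egr1 was 18.6 against 3.17 and 4.47. Chow Jnk1Jnk2 replicate 2 was the highest of its 3 at 8 members and replicate 3 the lowest at 8. High fat control replicate 2 was the lowest at 8. What set these libraries apart was not tested.

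**Figure D2:**
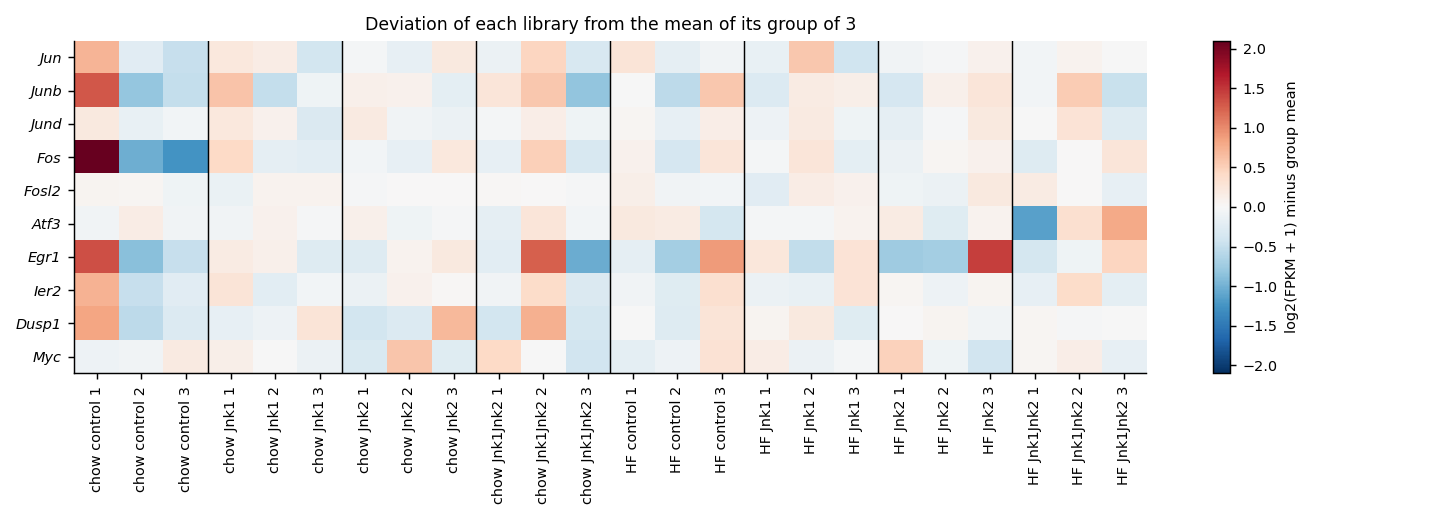
Deviation of each library (columns) from the mean of its group on the log2(FPKM + 1) scale, per member (rows of the map); red is above and blue below the group mean. The column of chow control replicate 1 is red at most members, and the row of Fosl2 is nearly white throughout (SD 0.13).

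Members were read from 1 limma fit of all tested loci with Benjamini-Hochberg adjustment, and a locus was called at an adjusted p under 0.05. On chow, 0 of the 10 members were called in Jnk1 against control, where 2.2% of loci were called. There 1 member, Jund, had an unadjusted p under 0.05, as did 14.2% of loci. In Jnk2 against control on chow 1 member was called, Jund, against 0.454% of loci. In Jnk1Jnk2 against control on chow 1 member was called, again Jund, against 0.161% of loci. On high fat, 0 members were called in Jnk1 against control (0.227% of loci), with 1, Jun, at an unadjusted p under 0.05 (11.9% of loci). In Jnk2 against control on high fat 1 member was called, Myc, against 12.4% of loci. In Jnk1Jnk2 against control on high fat 2 members were called, Jund and Fosl2, against 51.2% of loci, so the share of members was below that of all loci. At an unadjusted p under 0.05 on chow were 2 members in Jnk2 (13.2% of loci) and 4 in Jnk1Jnk2 (12.6% of loci). On high fat those counts were 2 in Jnk2 (27.7% of loci) and 3 in Jnk1Jnk2 (57.3% of loci). The comparisons on a diet share their control libraries.

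Jnk1Jnk2 livers were also set against Jnk1 and Jnk2 livers. On chow, 1 member was called against Jnk1, Jund (3.52% of loci), and 0 against Jnk2 (0.0473% of loci). Against Jnk2, Jun and Fosl2 had an unadjusted p under 0.05, as did 4.29% of loci. On high fat, 4 members were called against Jnk1: Jun, Fosl2 and Dusp1 were lower and Atf3 was higher (56.6% of loci called). Against Jnk2 on high fat 5 members were called, all lower: Jun, Jund, Fosl2, Egr1 and Myc (48.5% of loci called). Both shares are near the background.

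High fat against chow called 2 members in control, Jund and Myc (16.3% of loci), and 2 in Jnk1, again Jund and Myc (15% of loci). It called 2 in Jnk2, Fosl2 and Atf3 (26% of loci), and 2 in Jnk1Jnk2, the same pair with Fosl2 in the other direction (56.9% of loci). The diet change differed from that of control at 0 members for Jnk1 (0% of loci), with Fosl2 at an unadjusted p under 0.05 (5.16% of loci). It differed at 3 members for Jnk2, Jund, Fosl2 and Myc (9.52% of loci), and at 1 for Jnk1Jnk2, Jund (34.9% of loci).

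**Figure D3:**
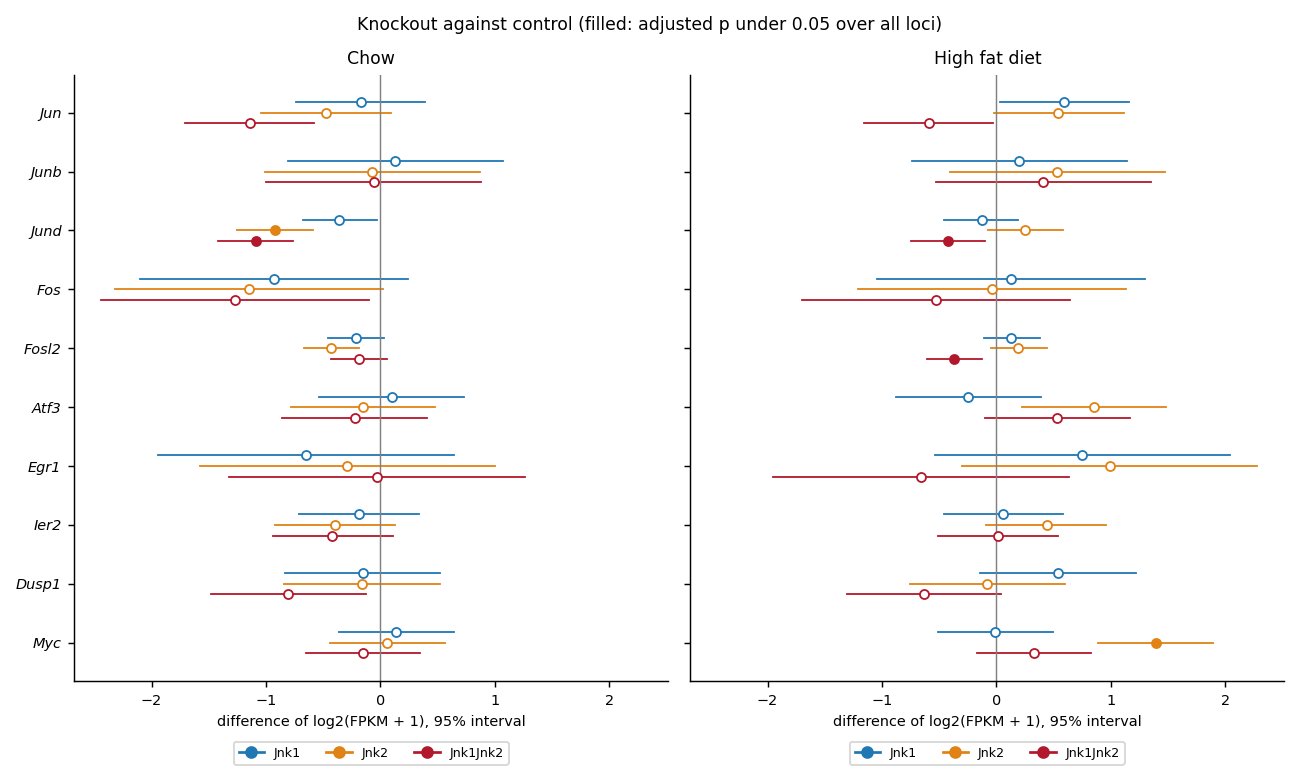
Difference between each knockout and control on chow (left) and high fat (right) per member, in log2(FPKM + 1), with 95% intervals from limma; filled points passed the adjusted threshold. Jund stands left of 0 on chow in Jnk2 and Jnk1Jnk2 (-0.92 and -1.09), and Myc stands at 1.39 in Jnk2 on high fat.

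Jun encodes c-Jun, the AP-1 subunit after which the Jun N-terminal kinases are named. Its locus (chr4:95049036-95052222, 1 exon) was lowest in the Jnk1Jnk2 groups. In control it was 14, 6.78 and 5.56 FPKM on chow and 7.04, 4.83 and 5.3 on high fat. In Jnk1 it was 8.48, 8.09 and 5.23 on chow and 8.07, 13.8 and 6.56 on high fat. In Jnk2 it was 5.41, 4.86 and 6.56 on chow and 8.22, 8.56 and 9.4 on high fat. All 6 Jnk1Jnk2 libraries were low. They measured 2.8, 4.69 and 2.3 on chow and 3.25, 3.62 and 3.38 on high fat, and did not overlap any other group of the same diet. The order of group means ran from high fat Jnk1 (9.48) to chow Jnk2 (5.61) with each neighbour overlapping the next, then broke before high fat Jnk1Jnk2 (3.42) and chow Jnk1Jnk2 (3.26).

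On high fat, Jun fell by 1.19 ± 0.27 (SE) on the log2(FPKM + 1) scale between Jnk1 and Jnk1Jnk2 (adjusted p = 0.00104, limma). Between Jnk2 and Jnk1Jnk2 it fell by 1.14 ± 0.27 (adjusted p = 0.00214). Both calls held under every alternative run. Against control the difference was -1.14 (95% interval -1.71 to -0.58) on chow, with an adjusted p of 0.136 by limma. On high fat it was -0.59 (-1.16 to -0.03), with an adjusted p of 0.0728. The Jnk1Jnk2 libraries lay below every control library on both diets, but neither difference passed over all loci. With array weights the chow difference was -1.19 (adjusted p = 0.0149), and with the fit restricted to the groups compared the high fat difference had an adjusted p of 0.0207. On chow, Jnk1Jnk2 differed from Jnk1 by -0.97 ± 0.27 (adjusted p = 0.0518, limma). This passed with a pseudocount of 0.1 (0.0369) and with array weights (0.0479). It also passed without chow Jnk1 replicate 3 (0.0451) or chow Jnk1Jnk2 replicate 2 (0.0419). In bulk liver, fewer cells of a type and less RNA per cell cannot be told apart.

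Junb encodes a JUN protein that can antagonise c-Jun. It ranged from 10.1 to 49.8 FPKM, both extremes on chow, and was called in none of the 17 comparisons by limma; none had an unadjusted p under 0.05. Its 8 group means lay between 16.8 (high fat control) and 24.6 (chow control), and every group overlapped the next. The interval of Jnk1Jnk2 against control was -1 to 0.88 on chow and -0.53 to 1.35 on high fat. Changes of a log2 unit thus fall inside or close to it.

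Jund encodes JunD, and had the highest FPKM of the 3 JUN genes. Its locus lies at chr8:70697739-70700616. Chow controls measured 56, 43.5 and 46.6 FPKM and chow Jnk1 44, 40 and 30.1. Chow Jnk2 measured 28.8, 23.8 and 23.1 and chow Jnk1Jnk2 21.5, 24.5 and 20.7, all 6 below every chow control and chow Jnk1 library. On high fat the spread was narrower, with 28.1, 24.2 and 30.3 in control and 23.2, 28.6 and 23.3 in Jnk1. High fat Jnk2 was highest (28.9, 32.3 and 38.1) and high fat Jnk1Jnk2 lowest (20.1, 24.7 and 16.5), without overlap between them.

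On chow, Jund fell by 0.92 ± 0.16 in Jnk2 (adjusted p = 0.0109, limma) and by 1.09 ± 0.16 in Jnk1Jnk2 (adjusted p = 0.00143) against control. Against chow Jnk1 it fell by 0.73 ± 0.16 in Jnk1Jnk2 (adjusted p = 0.0148). From chow to high fat it fell by 0.80 ± 0.16 in control (adjusted p = 0.00206) and by 0.57 ± 0.16 in Jnk1 (adjusted p = 0.0181). In Jnk2 the diet difference was 0.38 ± 0.16 (adjusted p = 0.0824). The diet change in Jnk2 lay above that in control by 1.17 ± 0.22 (adjusted p = 0.00451). The diet change in Jnk1Jnk2 lay above that in control by 0.67 ± 0.22 (adjusted p = 0.0249). On high fat, Jund fell by 0.42 ± 0.16 in Jnk1Jnk2 against control (adjusted p = 0.0295), with overlap of the groups, and by 0.68 ± 0.16 against Jnk2 (adjusted p = 0.00174).

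The Jund transcript has a GC content of 67.2%, above that of 99.9% of loci, and libraries differed in how their FPKM moved with GC. The Spearman correlation of deviation with GC was -0.01, -0.36 and -0.35 in the 3 chow Jnk2 libraries and -0.35, -0.07 and -0.3 in the 3 chow Jnk1Jnk2 libraries, against -0.03 to 0.03 in the chow controls. Chow Jnk2 replicate 1 and chow Jnk1Jnk2 replicate 2, whose GC correlations were near those of the controls, measured 28.8 and 24.5 FPKM of Jund, also below every chow control. Their correlations with length (0.31 and 0.42) lay above those of the chow controls (0.17 to 0.29). These are single libraries, and what lowered Jund in them was not tested. With the length and GC trends taken out of each library, a setting added after seeing the data, the chow differences were -0.48 in Jnk2 (adjusted p = 0.389, limma) and -0.48 in Jnk1Jnk2 (adjusted p = 0.504). Against chow Jnk1 the Jnk1Jnk2 difference was -0.31 (adjusted p = 0.541), and the diet difference in Jnk1 was -0.56 (adjusted p = 0.108). The diet difference in control was -0.39 (adjusted p = 0.255), the Jnk2 interaction 0.48 (adjusted p = 0.433), and the Jnk1Jnk2 interaction turned to -0.31 (adjusted p = 0.568). The diet difference in Jnk1Jnk2, -0.13 as deposited (adjusted p = 0.494), became -0.70 (adjusted p = 0.0246), and it was -0.52 (adjusted p = 0.0175) with the length trend alone removed. The fall in Jnk1Jnk2 on high fat was larger under that setting, at -0.79 (adjusted p = 0.0163), but missed the threshold with size factors (-0.32, adjusted p = 0.11), with no filter (0.0504) and with the fit restricted to the groups compared (0.0805). The fall against high fat Jnk2 passed under every setting. The Jnk2 call on chow also ended without chow control replicate 1 or chow Jnk2 replicates 2 or 3 (adjusted p from 0.0655 to 0.0825), and both chow calls against control ended with the fit restricted to the groups compared (0.0807 and 0.0674). That restriction also ended the calls of chow Jnk1Jnk2 against Jnk1 (0.111) and of diet in Jnk1 (0.0763). The Jnk1Jnk2 interaction also missed the threshold with quantile normalization (0.55, adjusted p = 0.0808) and with the length trend removed (0.33, adjusted p = 0.337). Other Jund calls also ended when 1 library was left out: Jnk1Jnk2 against Jnk1 on chow without Jnk1 replicate 1 or Jnk1Jnk2 replicates 1 or 3 (0.0595 to 0.0816), diet in Jnk1 without chow replicates 1 or 2 or high fat replicates 1 or 3 (0.0523 to 0.093), Jnk1Jnk2 against control on high fat without control replicates 1 or 3 or Jnk1Jnk2 replicates 1 or 3 (0.0576 to 0.159), and the Jnk1Jnk2 interaction without chow control replicate 1, chow Jnk1Jnk2 replicate 3, high fat control replicate 2 or high fat Jnk1Jnk2 replicate 2 (0.0588 to 0.0819).

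**Figure D4:**
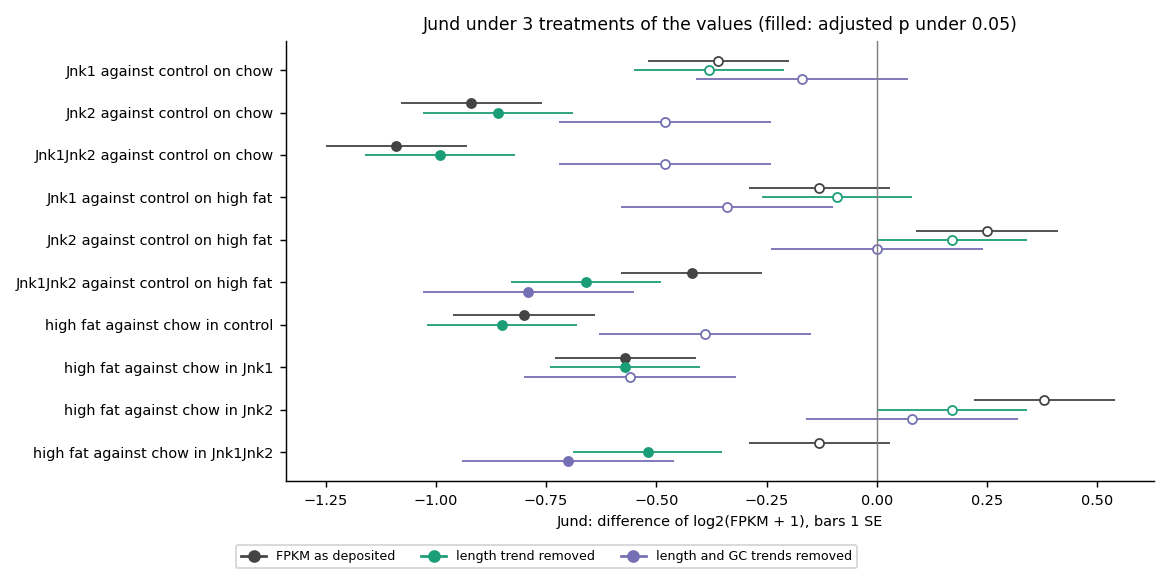
Jund: log2(FPKM + 1) difference (x axis, bars 1 SE) in 10 comparisons with FPKM as deposited, with the length trend removed, and with length and GC trends removed; filled points have an adjusted p under 0.05. On chow the purple points sit nearer 0 than the grey ones (-0.48 against -1.09 in Jnk1Jnk2), while in Jnk1Jnk2 on high fat they sit farther from 0 (-0.79 against -0.42).

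Fos encodes c-Fos, the partner of c-Jun that is induced fastest. Outside chow control replicate 1 it never exceeded 2.17 FPKM. Chow Jnk1Jnk2 measured 0.456, 1.33 and 0.309 and high fat Jnk1Jnk2 0.396, 0.682 and 1.01. Those 2 groups had the lowest means, 0.698 and 0.697 FPKM. On high fat, Jnk1Jnk2 lay below Jnk1 (1.58, 2.17 and 1.3) and below Jnk2 (1.17, 1.44 and 1.51) without overlap. No comparison called Fos by limma, and 1, Jnk1Jnk2 against control on chow, had an unadjusted p under 0.05. On high fat the differences were -0.67 ± 0.56 against Jnk1 (adjusted p = 0.323) and -0.50 ± 0.56 against Jnk2 (adjusted p = 0.481). The common SE of 0.56 includes the 1 chow control library at 18.2 FPKM: in fits restricted to the groups compared the same differences had adjusted p of 0.0177 and 0.0432.

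Fosl2 encodes FRA-2, a FOS protein with slower kinetics. Chow controls measured 2.41, 2.36 and 2.07 FPKM, and every other chow library was lower, down to 1.39 in Jnk2. On high fat, Jnk2 measured 2.02, 1.96 and 2.71 and Jnk1Jnk2 1.44, 1.18 and 0.935. The latter lay below every library of the other high fat groups. Fosl2 fell in high fat Jnk1Jnk2 by 0.37 ± 0.12 against control (adjusted p = 0.0121, limma), by 0.50 ± 0.12 against Jnk1 (adjusted p = 0.00113) and by 0.56 ± 0.12 against Jnk2 (adjusted p = 0.000739). With diet it fell by 0.41 ± 0.12 in Jnk1Jnk2 (adjusted p = 0.00579) and rose by 0.40 ± 0.12 in Jnk2 (adjusted p = 0.0158).

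The Fosl2 transcript is the longest of the 10, at 6537 bases, and the high fat Jnk1Jnk2 libraries are those in which long transcripts read low. With the length trend removed the Jnk1Jnk2 difference on high fat was 0.16 against control (adjusted p = 0.322, limma), 0.08 against Jnk1 (adjusted p = 0.61) and -0.13 against Jnk2 (adjusted p = 0.463), and the diet difference in Jnk1Jnk2 was 0.04 (adjusted p = 0.81). The direction of 3 of these 4 values turned. With quantile normalization the calls against Jnk1 (-0.28, adjusted p = 0.0567) and against control (-0.15, adjusted p = 0.304) ended, and the latter also ended without high fat control replicate 1 or Jnk1Jnk2 replicate 3 (0.0639 and 0.0657). The diet rise in Jnk2 was 0.43 with the length trend removed (adjusted p = 0.0135). It missed the threshold with size factors (0.30, adjusted p = 0.0809), with quantile normalization (0.28, adjusted p = 0.0966) and without high fat Jnk2 replicate 3 (0.30, adjusted p = 0.0719). The diet change in Jnk2 exceeded that in control by 0.62 ± 0.16 (adjusted p = 0.0232), and missed the threshold without chow control replicate 2, high fat control replicate 2 or high fat Jnk2 replicate 3 (adjusted p 0.0505 to 0.056).

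Atf3 encodes a stress-induced ATF protein that pairs with JUN proteins and often represses. It was low in all 12 chow libraries, 0.169 to 0.786 FPKM. On high fat, control measured 1.56, 1.52 and 0.726 and Jnk1 0.841, 0.827 and 0.993. Jnk2 measured 3.56, 2.36 and 3.26, above all high fat control and Jnk1 libraries. High fat Jnk1Jnk2 was split, at 0.473, 3.09 and 4.59. Atf3 rose with diet by 1.52 ± 0.30 in Jnk2 (adjusted p = 0.00147, limma), a call that held under every alternative run, and by 1.27 ± 0.30 in Jnk1Jnk2 (adjusted p = 0.00158), where the groups overlapped through replicate 1. The latter had an adjusted p of 0.0607 with the fit restricted to the groups compared. The diet difference was 0.52 in control (95% interval -0.12 to 1.15) and 0.18 in Jnk1 (-0.46 to 0.81). The interaction was 1.00 ± 0.43 for Jnk2 (adjusted p = 0.141, limma) and 0.76 ± 0.43 for Jnk1Jnk2 (adjusted p = 0.178). These 2 values depended on the setting. The Jnk2 interaction passed with array weights (0.98, adjusted p = 0.0349) and with the fit restricted to the groups compared (1.00, adjusted p = 0.0342). The Jnk1Jnk2 interaction was 1.32 (adjusted p = 0.000788) without high fat Jnk1Jnk2 replicate 1.

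The Atf3 values of high fat Jnk1Jnk2 turned on replicate 1. Against high fat control Atf3 differed by 0.53 ± 0.30 (adjusted p = 0.15, limma) with it and by 1.10 (adjusted p = 0.000128) without it. Against high fat Jnk1 it rose by 0.78 ± 0.30 (adjusted p = 0.0356), which missed the threshold without any 1 of the 3 Jnk1 libraries or without Jnk1Jnk2 replicate 2 or 3 (adjusted p 0.058 to 0.267). It also missed it with a pseudocount of 0.1, with no filter, with the length trend or both trends removed (0.0641 to 0.0987) and with the fit restricted to the groups compared (0.202). Markers of lipid-laden macrophages were likewise lowest in replicate 1 among the high fat Jnk1Jnk2 libraries. The 5 markers were Trem2, Gpnmb, Cd9, Spp1 and Lgals3, all in the table and none at 0. Their summed level was 59.9, 136 and 162 FPKM in the high fat Jnk1Jnk2 libraries and 46.3 to 71.7 in high fat Jnk2. It was 34.8 to 45.3 in high fat control, 28.9 to 44.9 in high fat Jnk1 and 27.2 to 54.8 on chow. The top chow value was in Jnk1Jnk2 (43.6 to 54.8), the group with the lowest mean Atf3 (0.348 FPKM). High fat Jnk1Jnk2 replicate 1 lay above every high fat control in this sum but below every one in Atf3. Spp1 and Cd9 overlapped between high fat Jnk2 and high fat control, while Trem2, Gpnmb and Lgals3 did not. Trem2 was 2.95, 12.4 and 15.7 FPKM in the 3 high fat Jnk1Jnk2 libraries. Macrophage and Kupffer cell markers, 9 of 10 in the table, ran the other way there. They summed to 337, 322 and 309 FPKM, highest in replicate 1. That sum was 201 to 237 in high fat control, 169 to 270 in high fat Jnk1 and 209 to 292 in high fat Jnk2. The part of either marker list in the Atf3 result was not tested.

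Egr1 encodes a zinc finger factor that responds to growth factor and stress signals. It had the widest spread within groups of the 10. High fat Jnk2 measured 7.72, 7.92 and 39.1 FPKM and high fat Jnk1 13.5, 7.65 and 14. High fat Jnk1Jnk2 measured 2.62, 3.4 and 5.4, below both without overlap, and high fat control 5.46, 3.5 and 12.7. Egr1 fell by 1.65 ± 0.62 between high fat Jnk2 and Jnk1Jnk2 (adjusted p = 0.034, limma). Without high fat Jnk2 replicate 3 the difference was -0.92 (adjusted p = 0.228), and it also missed the threshold without Jnk1Jnk2 replicate 1 or 2 (0.0969 and 0.0828). With no filter, quantile normalization, the length trend or both trends removed, array weights or the fit restricted to the groups compared the adjusted p was 0.0664 to 0.187. Against Jnk1 the difference was -1.40 ± 0.62 (adjusted p = 0.0596, limma). It passed with a pseudocount of 0.1 (0.0483), array weights (0.0376) and the fit restricted to the groups compared (0.00872). The diet difference in Jnk1 was 1.34 ± 0.62 without overlap (adjusted p = 0.156, limma). In the fit restricted to the groups compared its adjusted p was 0.0261.

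Ier2 encodes a small nuclear protein of the immediate early class. It ranged from 9.94 to 29.1 FPKM, with chow control replicate 1 the highest, and was called in none of the 17 comparisons by limma; 1 had an unadjusted p under 0.05, the Jnk2 interaction (0.83 ± 0.35, adjusted p = 0.137). High fat Jnk2 (17.3, 15.5 and 17.5) lay above chow Jnk2 (11.7, 13.8 and 13.1) without overlap, a difference of 0.36 ± 0.25 (adjusted p = 0.309). The Ier2 transcript has a higher GC content than 97.3% of loci. With length and GC trends removed, Ier2 passed in 2 comparisons: the diet difference in Jnk1Jnk2 was -0.60 (adjusted p = 0.0408, against -0.04 as deposited), and that of high fat Jnk1Jnk2 from Jnk2 was -0.62 (adjusted p = 0.0485, against -0.42 as deposited).

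Dusp1 encodes MKP-1, which removes the activating phosphates from JNK and p38. Its lowest and tightest group was high fat Jnk1Jnk2, at 7.31, 6.95 and 7.01 FPKM. High fat Jnk2 measured 11, 11.4 and 10.3, high fat control 11.5, 9.39 and 14.2 and high fat Jnk1 18, 20 and 14.4. The Jnk1Jnk2 libraries lay below all of these. On chow, Jnk1Jnk2 measured 7.24, 17 and 7.27 and overlapped the controls (32.3, 11.8 and 14.4). Dusp1 fell by 1.18 ± 0.32 between high fat Jnk1 and Jnk1Jnk2 (adjusted p = 0.00461, limma), a call that held under every alternative run. Against high fat control the difference was -0.63 (95% interval -1.31 to 0.04, adjusted p = 0.109) and against high fat Jnk2 -0.55 (adjusted p = 0.165). In fits restricted to the groups compared these 2 had adjusted p of 0.0206 and 0.0181.

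Myc encodes the growth factor-responsive transcription factor c-Myc. On chow it lay between 1.6 and 4.95 FPKM with all genotypes overlapping. On high fat, control measured 0.879, 1.03 and 1.7 and Jnk1 1.4, 0.99 and 1.1. High fat Jnk2 measured 6.99, 4.34 and 3.33, above every other high fat library, and Jnk1Jnk2 1.79, 1.99 and 1.43. Myc rose by 1.39 ± 0.24 in high fat Jnk2 against control (adjusted p = 0.0009, limma; 0.0579 with the fit restricted to the groups compared). Between high fat Jnk2 and Jnk1Jnk2 it fell by 1.06 ± 0.24 (adjusted p = 0.00145), under every alternative run. Endothelial markers were among those that changed in both comparisons. In high fat Jnk2 against control 5 of 6 were higher and 0 lower (12.4% of loci called), and in high fat Jnk1Jnk2 against Jnk2 1 was higher and 5 lower (48.5% of loci called), with a median change of -0.75 against -0.14 over all loci. Their summed level was 81.2 to 83.1 FPKM in high fat Jnk2, 51.4 to 56.5 in high fat control and 71.4 to 83.1 in high fat Jnk1Jnk2, so the sum overlapped where most single markers fell. In high fat Jnk1Jnk2 against control, where the endothelial sum was also higher, Myc was not called (0.33, adjusted p = 0.263, limma). Other sums also differed between high fat Jnk2 and control. Stellate cell markers were 118 to 153 against 87.7 to 117 FPKM, and lipid-laden macrophage markers 46.3 to 71.7 against 34.8 to 45.3. Hepatocyte markers were 38100 to 39800 against 30300 to 36900, and cholangiocyte markers 2.71 to 5.85 against 2.01 to 2.69. Neutrophil markers were lower, at 14 to 21.7 against 26 to 88.1. The sums of macrophage and Kupffer cell, T and B cell, and erythroid markers overlapped. The part of any cell type in the Myc result was not tested.

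With diet, Myc fell by 0.82 ± 0.24 in control (adjusted p = 0.0254, limma) and by 0.97 ± 0.24 in Jnk1 (adjusted p = 0.00985). The diet difference was 0.52 ± 0.24 in Jnk2 (adjusted p = 0.119) and -0.34 ± 0.24 in Jnk1Jnk2 (adjusted p = 0.236). That in Jnk2 passed without chow Jnk2 replicate 2 (0.80, adjusted p = 0.0202), without high fat Jnk2 replicate 3 (0.71, adjusted p = 0.0427) and with array weights (0.67, adjusted p = 0.0232). The diet change in Jnk2 exceeded that in control by 1.33 ± 0.34 (adjusted p = 0.0204). The fall in Jnk1 held under every alternative run. That in control missed the threshold without chow control replicates 2 or 3 or high fat control replicates 1 or 2 (adjusted p 0.0515 to 0.0983), and the interaction without chow control replicate 3 or chow Jnk2 replicate 3 (0.0503 and 0.0592) or with the fit restricted to the groups compared (0.0667).

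**Figure D5:**
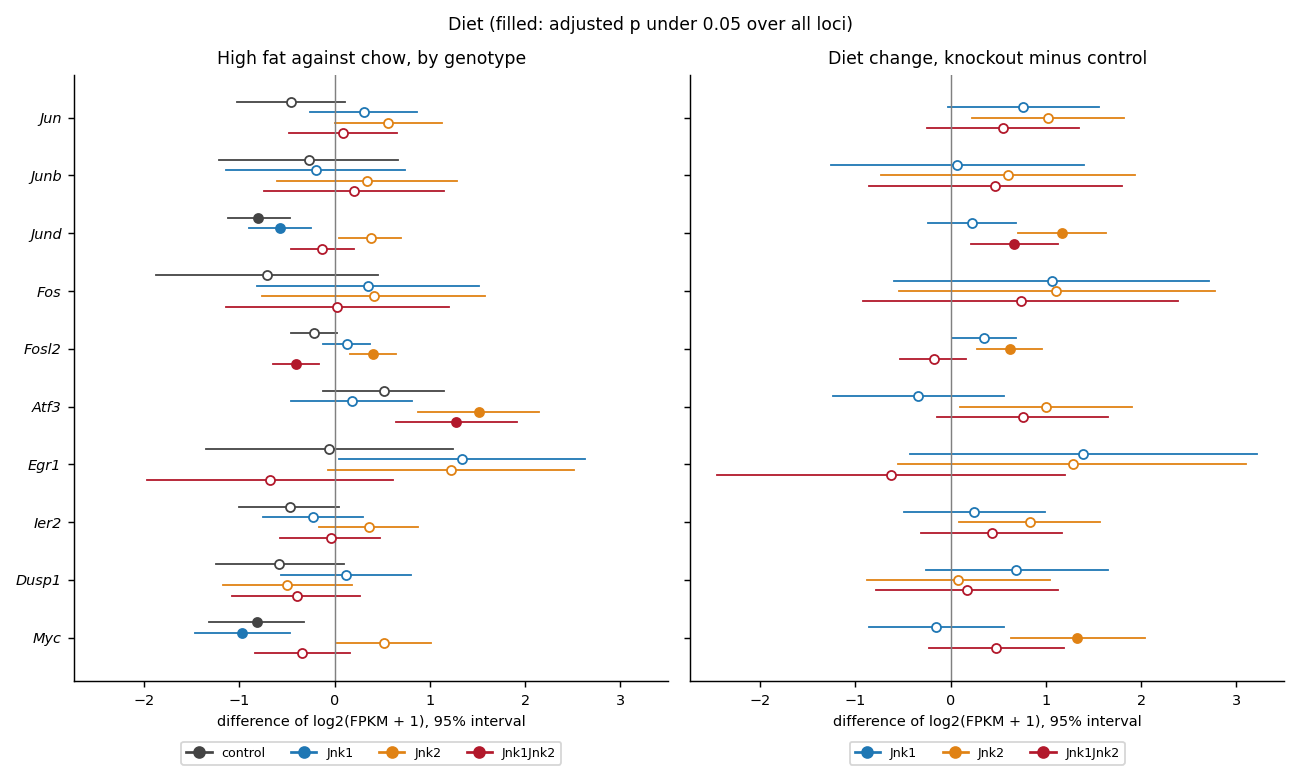
Left, difference of high fat from chow in each genotype; right, that difference in each knockout minus that in control; both in log2(FPKM + 1) per member with 95% intervals, filled where the adjusted p was under 0.05. Jund and Myc lie left of 0 in control and Jnk1 (-0.80 and -0.82 in control), and Atf3 lies right of 0 in Jnk2 and Jnk1Jnk2 (1.52 and 1.27).

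Other genes of the same pathways were counted from lists. Of 14 AP-1 partners (ATF and BATF proteins, other FOS proteins and related factors) 10 were tested. In high fat Jnk1Jnk2 against control 2 were higher and 5 lower (51.2% of loci called), with a median change of -0.11 against -0.07 over all loci. Atf4, a factor of the integrated stress response, rose by 0.61 ± 0.13 (adjusted p = 0.000551, limma), and Atf2, itself a JNK substrate, fell by 0.54 ± 0.09 (adjusted p = 0.000122). Genes of this and the following lists were read only from FPKM as deposited. With the length trend removed, 3384 of 10193 loci were called in this comparison, against 5410 of 10562 as deposited. In high fat Jnk2 against control, Maff rose by 1.11 ± 0.31 (adjusted p = 0.0262).

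Of 33 other immediate early genes 27 were tested. High fat Jnk2 against control had 4 higher and 1 lower (12.4% of loci called, median 0.18 against 0.02 over all loci): Ier3, Klf6, Plk2 and Plk3 were higher and Errfi1, a feedback inhibitor of the EGF receptor, was lower. With diet, control had 0 higher and 4 lower (16.3% of loci called), with a median of -0.24 against 0.04 over all loci. Jnk2 had 7 higher and 3 lower (26% of loci called), and its median of -0.01 was no higher than the 0.10 over all loci. In control the 4 lower were Gadd45b, Plk2, Plk3 and Sik1, the last a kinase induced by cAMP (-1.42 ± 0.25, adjusted p = 0.000934, limma). Of 10 MAP kinase phosphatases 5 were tested, and 3 were higher in high fat Jnk2 than in control, where 12.4% of loci were called: Dusp3, Dusp7 and Dusp10 (0.55, 0.40 and 0.48). In high fat Jnk1Jnk2 against control (51.2% of loci called) 1 was lower, Dusp16, a phosphatase of JNK and p38 (-1.0 ± 0.13, adjusted p = 6e-06).

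Serum response factor and its partners, which drive Fos and Egr1, were all 6 tested. Srf fell on chow by 0.56 ± 0.10 in Jnk2 (adjusted p = 0.0124, limma) and by 0.52 ± 0.10 in Jnk1Jnk2 (adjusted p = 0.0285) against control. Of all loci 0.454% and 0.161% were called there, 48 and 17 loci. With length and GC trends removed 28 and 10 loci were called, and Srf was read only from FPKM as deposited. Of 13 genes with textbook AP-1 sites 7 were tested. With diet, 2 were higher and 1 lower in control (16.3% of loci called) and 1 and 0 in Jnk1 (15%). In Jnk2 the counts were 5 and 0 (26%), and in Jnk1Jnk2 6 and 1 (56.9%). Ccnd1, the cyclin D1 gene, rose in each (1.16, 1.15, 1.24 and 1.67, SE 0.25). The list shares Spp1 with the macrophage markers. Of 8 MYC target genes, all tested, 1 was higher and 0 lower in high fat Jnk2 against control (12.4% of loci called), where Myc rose. In high fat Jnk1Jnk2 against control 5 were higher and 2 lower (51.2% of loci called), and the difference of Myc was 0.33 ± 0.24 (adjusted p = 0.263).

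Deviations from the group means were compared between members over the 24 libraries, 45 pairs in all, by permutation of libraries within groups. Of these, 34 had a positive r and 6 had an adjusted p under 0.05. Jun with Fos had r = 0.78 (adjusted p = 0.0054, permutation test) and rho = 0.82 (adjusted p = 0.00315), and r = 0.73 without the 2 libraries farthest from the median of Jun. Junb with Ier2 had r = 0.89 (adjusted p = 0.0054, permutation test) and rho = 0.83 (adjusted p = 0.00825), and r = 0.84 without the 2 farthest. Junb with Jund had r = 0.69 (adjusted p = 0.00975, permutation test) and rho = 0.74 (adjusted p = 0.0063), and r = 0.69 without the 2 farthest. The other 3 pairs were Egr1 with Ier2 (r = 0.71), Fos with Egr1 (r = 0.65) and Jun with Jund (r = 0.63), each with an adjusted permutation p of 0.0268. Their rho was 0.65, 0.66 and 0.62 (each adjusted p 0.0289), and r without the 2 farthest was 0.68, 0.61 and 0.55. Without chow control replicate 1, 2 pairs had an adjusted p under 0.05: Jun with Fos (r = 0.74) and Junb with Ier2 (r = 0.81). Within chow libraries 1 pair passed, Jun with Fos, and within high fat libraries 0. All members of a library share its depth, composition and handling.

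Over the 24 libraries and the groups together, the loci most like each member were taken by Pearson r of log2(FPKM + 1), as a description. Atf3 was most like Mmp12, a macrophage elastase (r = 0.94), Pkm (0.90) and Capg (0.90). Myc was most like Cyp26b1, a retinoic acid hydroxylase (0.84). Jun was most like Trib1 (0.83), Jund like Hnrnpa0 (0.87), Junb like Ier2 (0.80), Fosl2 like Elavl1 (0.80), Dusp1 like Ficd (0.80) and Egr1 like Dnmt1 (0.76). Fos was most like Ercc2 (0.90), and Nr4a1, another immediate early gene, was among its 3 most similar loci (0.80). Without chow control replicate 1 those values for Fos were 0.26 and 0.22, so the likeness rested on that library, while Atf3 with Mmp12 remained at 0.94.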

How the data were processed

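Per the labels' protocols, liver RNA came from RNeasy columns. Per the submitters' processing notes the tools were TopHat, Cufflinks and Cuffdiff and the build mm10, with versions not given in the sources used here. Deposited by the authors were FPKM per library, scaled to transcript length and mapped total, and since these are not counts a log scale test was used. Samples were grouped by their titles. The members and lists were chosen with earlier results of these data known.

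The table has 19796 loci above 0 in some library, and those averaging 1 FPKM or more (10562) entered limma-trend on log2(FPKM + 1) in R 4.3.3 with limma 3.58.1. Each group had its own mean, which left 16 residual degrees of freedom beside a prior of 3.43. The pseudocount of 1 understates changes of low genes such as Fos and Atf3. P-values were adjusted by Benjamini-Hochberg over all tested loci in each of 17 comparisons. Exact permutation of 3 libraries against 3 has a smallest two-sided p of 0.1 and was not used for single comparisons. Pairs of members were tested with 100000 permutations within groups. The text names the 10 members, up to 4 called genes per list and comparison (not all printed, and 1 result is not reported here) and, for each member, the 3 most similar loci (not all printed). Transcript length and GC content (GENCODE vM21) were available for 10193 tested loci. The depth estimate behind fragment numbers takes the commonest product of FPKM and transcript length, at low loci of few exons, as 1 fragment. Alternatives were a pseudocount of 0.1, no filter, size factors, quantile normalization, array weights, a replicate block, a fit restricted to the groups compared, trends on length and GC removed, and each library left out. The scripts were tested on simulated data. Permutations and plots used Python 3.11.15 with scipy 1.17.1, pandas 2.3.3 and matplotlib 3.10.9 (numpy 2.4.6).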

Additional observations from a re-analysis of the deposited data

Results flagged for a closer look

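For 3 members the diet change in Jnk2 differed from that in control by the test of the difference itself (limma, adjusted over all loci). The difference was 1.17 for Jund, 0.62 for Fosl2 and 1.33 for Myc on the log2(FPKM + 1) scale. For Jnk1Jnk2 it was 0.67 for Jund. With length and GC trends removed the Jund value for Jnk2 was 0.48 and lost its call (adjusted p = 0.433), and that for Jnk1Jnk2 turned to -0.31 (adjusted p = 0.568). These 4 differences share the control libraries of both diets.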

How the results depend on the processing

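Of 27 called member values, 7 kept their call under every alternative: Jun and Dusp1 in high fat Jnk1Jnk2 against Jnk1, Jun, Jund and Myc in high fat Jnk1Jnk2 against Jnk2, Myc with diet in Jnk1 and Atf3 with diet in Jnk2. Over settings other than leaving out a library, 201 of 243 values kept direction and call, 36 lost the call and 6 reversed. The reversed values were Fosl2 in high fat Jnk1Jnk2 against control (0.16 with the length trend removed, 0.10 with length and GC), against Jnk1 (0.08 and 0.07) and with diet in Jnk1Jnk2 (0.04 with the length trend removed), and the Jund interaction with Jnk1Jnk2 (-0.31 with length and GC removed). The cause was not tested.

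Counts of members called moved as follows. With array weights they were 2 in chow Jnk2, chow Jnk1Jnk2 and high fat Jnk2 against control, and 2 in chow Jnk1Jnk2 against Jnk1. With the fit restricted to the groups compared, which has fewer samples, those 4 were 0, and diet in Jnk1Jnk2 gave 1. For high fat Jnk1Jnk2 against control the count was 1 with no filter, with size factors, with quantile normalization, with the length trend removed and with length and GC removed. With the length trend removed high fat Jnk1Jnk2 against Jnk2 gave 3. With length and GC removed the count was 0 for chow Jnk2 and chow Jnk1Jnk2 against control and chow Jnk1Jnk2 against Jnk1, 2 for high fat Jnk1Jnk2 against Jnk1, and 1 for diet in control and in Jnk1. A pseudocount of 0.1 gave 2 for chow Jnk1Jnk2 against Jnk1. Size factors and quantile normalization gave 1 for diet in Jnk2. The Jnk1Jnk2 interaction gave 0 with quantile normalization and with either trend removal. Called pairs of members were 1 within chow and 0 within high fat.

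Leaving out 1 library gave 0 to 1 for chow Jnk2 against control, 0 to 2 for high fat Jnk1Jnk2 against control and for chow Jnk1Jnk2 against Jnk1, 1 to 2 for diet in control and in Jnk1, 0 to 2 for the Jnk1Jnk2 interaction, and 2 pairs without chow control replicate 1. Scaling by size factors moved the median change of all loci most in high fat Jnk1Jnk2 against Jnk2 (from -0.14 to -0.02) and in diet in Jnk2 (from 0.10 to -0.03). Same-numbered libraries did not deviate together (median r -0.02 over 84 pairs, 8 over 0.1), so the numbers were not read as pairs. With the replicate block, 1 member was called in chow Jnk1Jnk2 against control, and no count moved by over 1.5 times. Depth limits Fos and Atf3, with medians of 32 and 24 estimated fragments per library.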
